A study of Mus musculus with 8 samples.

Results

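Wnt-driven pericentral zonation genes are genes that hepatocytes around the central vein of the liver lobule express under Wnt signalling. The set held 10 members, Glul, Axin2, Lgr5, Tbx3, Oat, Rnf43, Znrf3, Lect2, Rhbg and Slc1a2, out of 22180 genes named on the arrays. A row of the array counted for a member if its annotation gave that symbol alone, and where a gene had several rows the one with the highest mean over the 8 arrays was kept. All 10 members had such a row, and all 10 lay above the limit of 3.32 (log2) for dim genes and were tested.

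Expression was measured in primary hepatocytes from 4 p16-/- samples (KO) and 4 p16+/+ samples (WT), each on 1 array; KO and WT mice were littermates. The gene for p16, a protein that restrains the kinases CDK4 and CDK6, is Cdkn2a. Cells of both groups, isolated by collagenase perfusion, attached overnight in Williams E medium that held insulin (100 nM), dexamethasone (25 nM) and 10% serum. From 16 h on they were kept for 8 h in DMEM with 1 mM glucose and 0.1% albumin, and RNA was taken at 24 h; no Wnt ligand or R-spondin is named among the additions to either medium. The labels give no strain, sex or age and do not say which part of Cdkn2a is deleted. They call the samples of each group biological replicates 1 to 4 but do not say whether each is a separate animal. The spread behind each p-value may therefore be partly technical.

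In the liver, endothelial cells of the central vein release Wnt ligands and R-spondins that reach only the nearest hepatocytes. There they keep beta-catenin from being degraded, and beta-catenin with TCF/LEF factors switches on a pericentral programme that includes glutamine synthesis, while periportal genes for urea and glucose synthesis are held down. The members fall into pathway feedback genes (Axin2, Rnf43, Znrf3, Lgr5), a transcription factor (Tbx3), enzymes and transporters of glutamate, glutamine and ammonia (Glul, Oat, Rhbg, Slc1a2) and a secreted protein (Lect2). Cultured hepatocytes are cut off from the central vein, which limits them as a model of zonation.

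Glul, Oat and Lect2 were higher in KO hepatocytes, by 0.59, 0.57 and 0.78 on the log2 scale. The other 7 members did not pass the test, among them all 4 feedback genes. Promoter sequence is shown for the 3 members that rose together and for Axin2, the standard readout of Wnt signalling, which did not pass. The sequences are the 250 bases upstream of the start in RefSeq (GRCm38.p6), 5′ to 3′ on the gene's strand. They are chr1:153899679-153899928 on the plus strand for Glul, chr7:132576399-132576648 on the minus strand for Oat, chr13:56548539-56548788 on the minus strand for Lect2 and chr11:108920099-108920348 on the plus strand for Axin2. Capitals mark a match to a TCF/LEF site.
Glul: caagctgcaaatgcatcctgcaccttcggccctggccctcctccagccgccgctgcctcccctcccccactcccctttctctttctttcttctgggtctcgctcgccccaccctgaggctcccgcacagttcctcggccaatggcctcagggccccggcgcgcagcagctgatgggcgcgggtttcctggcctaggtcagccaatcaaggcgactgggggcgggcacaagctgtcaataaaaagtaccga
Oat: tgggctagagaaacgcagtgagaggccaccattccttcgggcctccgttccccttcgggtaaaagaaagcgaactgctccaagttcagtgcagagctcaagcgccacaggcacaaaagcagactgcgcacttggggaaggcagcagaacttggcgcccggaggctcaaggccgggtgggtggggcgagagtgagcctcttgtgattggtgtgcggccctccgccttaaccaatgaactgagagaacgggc
Lect2: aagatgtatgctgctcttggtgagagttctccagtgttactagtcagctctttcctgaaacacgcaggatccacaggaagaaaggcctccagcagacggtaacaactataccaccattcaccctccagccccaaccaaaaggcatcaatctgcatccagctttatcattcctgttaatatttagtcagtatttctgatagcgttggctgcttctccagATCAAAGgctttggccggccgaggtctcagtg
Axin2: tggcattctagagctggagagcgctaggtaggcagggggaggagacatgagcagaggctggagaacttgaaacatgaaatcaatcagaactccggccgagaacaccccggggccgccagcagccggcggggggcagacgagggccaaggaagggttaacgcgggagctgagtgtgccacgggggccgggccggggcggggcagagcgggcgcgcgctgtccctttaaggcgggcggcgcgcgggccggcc

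The letters searched, on both strands, were CTTTGAA as well as its variants with another ending, which are CTTTGAT or, with T before the last base, CTTTGTA or else CTTTGTT. Of 32851 RefSeq promoter windows of 250 bases, 14.8% held at least 1 of them. Promoter entries were matched for 6 members, 7 windows in all since Rnf43 has 2, and 2 of the 7 windows held a match. Lect2 had CTTTGAT on the opposite strand (read as ATCAAAG) at -32 to -26 from the start, and Slc1a2 had the same letters at -207 to -201. The windows of Glul, Oat, Axin2 and Rnf43 held none of these letters. Sequence outside the windows was not searched, so sites further away in these genes would be missed. Lgr5, Tbx3, Znrf3 and Rhbg were not matched.

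The arrays were alike, with medians of 3.76 to 3.88 (log2) and correlations across genes of 0.985 to 0.993 within groups and 0.973 to 0.983 between them. KO replicate 4 stood apart on the second principal component (17.9% of the variance) at -25.2, against -8.91 to 14.6 for the other 7 arrays. Cdkn2a itself read 4.53 ± 0.31 in KO and 4.53 ± 0.28 in WT hepatocytes (SD, n = 4 each), and where its probes lie relative to the deletion is not given in the sources used here, so it does not check the genotype. In the fit across all genes (limma, Benjamini-Hochberg adjusted p under 0.05), 7.02% of 15380 genes were called higher and 6.76% lower in KO. Of the members, 3 of 10 were called higher and 0 lower; at an unadjusted p under 0.05, which 12.2% of all genes passed as higher and 14.7% as lower, it was the same 3 and no other. These 3 were also the members whose KO and WT arrays did not overlap, all with KO higher, against 20.2% of all genes without overlap and 9.13% with KO higher. The median change of the members was 0.12 on the log2 scale, against -0.02 over all genes tested. Changes are KO minus WT throughout. Levels of different genes are ranked only for the limit for dim genes and for the highest means within a list. They are not read as amounts of RNA, since each row has its own probes.

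**Figure D1:**
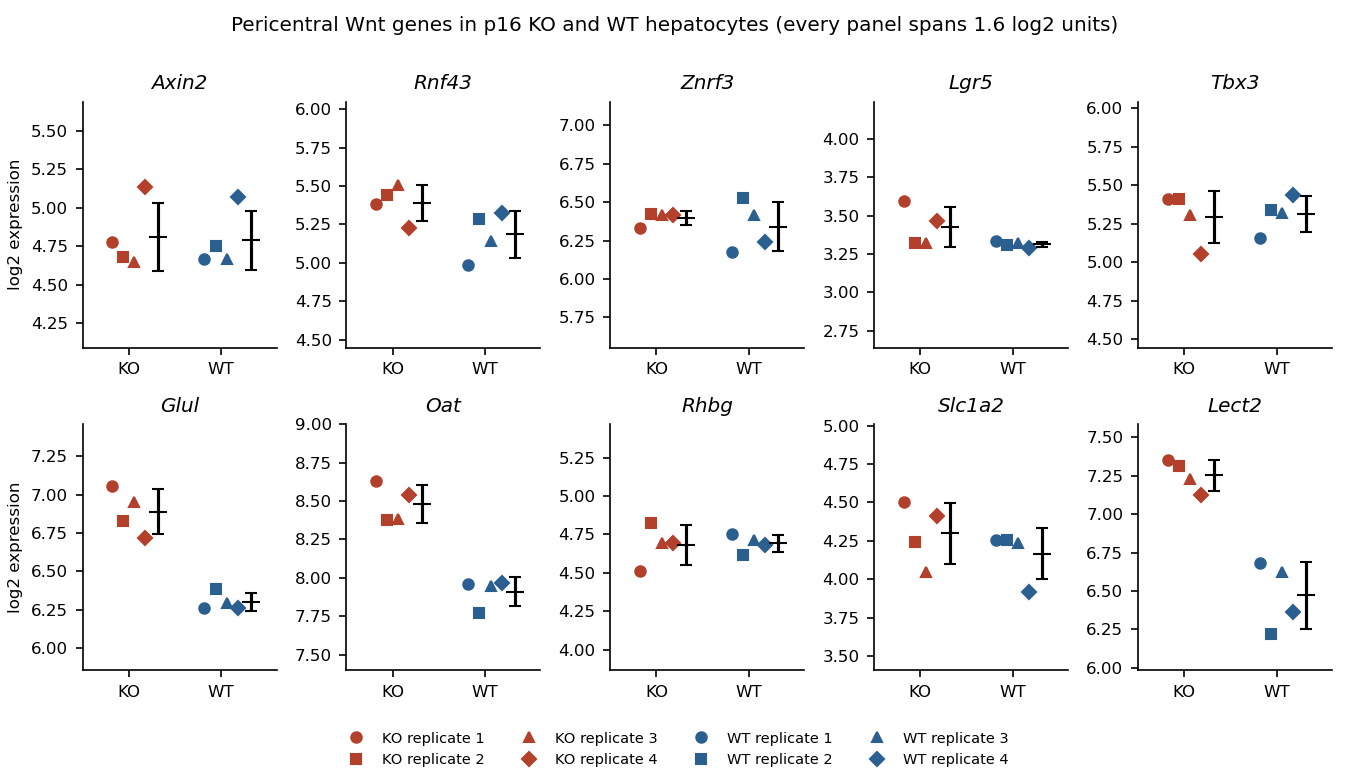
Log2 expression of the 10 members in each array, KO left and WT right in every panel; symbols mark the replicate number, and the bar beside each group is its mean ± SD (n = 4). The KO arrays lie above all WT arrays for Glul, Oat and Lect2, and the groups overlap for the other 7.

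Among the feedback genes, Axin2 encodes a scaffold of the complex that degrades beta-catenin and is itself a target of the pathway. Its log2 values were 4.78, 4.68, 4.65 and 5.14 in KO replicates 1 to 4, against 4.67, 4.75, 4.67 and 5.07 in WT replicates 1 to 4. Replicate 4 was the highest array in both groups, and the groups overlapped over nearly their whole range. The change was 0.022 (SE 0.13) with a 95% interval of -0.27 to 0.31, which leaves room for anything from 0.830-fold to 1.24-fold (limma, adjusted p = 0.942). A further row for Axin2 gave 0.096, with an interval of -0.16 to 0.35.

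Rnf43 and Znrf3 are related transmembrane ubiquitin ligases that remove Frizzled receptors from the cell surface, and both are induced by Wnt signalling as a brake. Rnf43 read 5.38, 5.44, 5.51 and 5.23 in KO arrays and 4.99, 5.28, 5.14 and 5.32 in WT arrays. Most KO values lay above the WT values, but KO replicate 4 lay among the WT arrays. The change of 0.21 (SE 0.10, interval -0.022 to 0.43) did not pass (limma, adjusted p = 0.237), and it had the smallest p of the 7 members that were not called. Znrf3 read 6.33, 6.42, 6.42 and 6.42 in KO arrays and 6.18, 6.53, 6.42 and 6.24 in WT arrays. The KO values lay inside the WT range, with a change of 0.055 (interval -0.16 to 0.27; limma, adjusted p = 0.777). In Znrf3 the same value of 6.416 stood in 3 arrays, KO replicates 3 and 4 and WT replicate 3; identical values across arrays occurred in 16.2% of all genes tested, and the KO SD was 0.044.

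Lgr5 is a receptor for R-spondins, which shield Frizzled receptors from these ligases, and in the liver it marks cells next to the central vein. Its values were 3.59, 3.32, 3.32 and 3.46 in KO arrays and 3.33, 3.31, 3.32 and 3.29 in WT arrays. KO replicates 1 and 4 stood above the WT arrays and the other KO arrays among them. The WT mean of 3.31 is under the limit of 3.32 for dim genes and the KO mean of 3.42 just over it, so Lgr5 entered the test through its KO values. The change of 0.11 (interval -0.085 to 0.31) did not pass (limma, adjusted p = 0.481), and whether Lgr5 stood above background was not tested. A further row for Lgr5 was dimmer, with means of 2.72 in KO and 2.74 in WT and a change of -0.023.

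Tbx3, a repressor of transcription and a known beta-catenin target in liver, read 5.41, 5.41, 5.31 and 5.05 in KO arrays and 5.15, 5.34, 5.32 and 5.43 in WT arrays. The lowest array was KO replicate 4 and the highest WT replicate 4, and the groups overlapped. The change was -0.017 (interval -0.25 to 0.22; limma, adjusted p = 0.944).

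Glul encodes glutamine synthetase, which joins ammonia to glutamate and is confined in normal liver to the hepatocytes around the central vein. Its log2 values were 7.06, 6.83, 6.95 and 6.72 in KO arrays, against 6.26, 6.38, 6.29 and 6.26 in WT arrays. The lowest KO array lay 0.33 above the highest WT array. The means were 6.89 ± 0.15 in KO and 6.30 ± 0.06 in WT hepatocytes (SD, n = 4 each), a change of 0.59 (SE 0.10, interval 0.38 to 0.80) or 1.30-fold to 1.74-fold (limma, adjusted p = 0.00191). Of all genes tested 3.35% had a larger rise, with larger falls not counted. A further row annotated to Glul was dim, with means of 2.63 in KO and 2.73 in WT, and a change of -0.10; when the rows were averaged, the change was 0.24 and the call ended (limma, adjusted p = 0.190).

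Oat encodes ornithine aminotransferase, a mitochondrial enzyme that turns ornithine toward glutamate and is enriched around the central vein. It read 8.63, 8.38, 8.38 and 8.54 in KO arrays and 7.96, 7.77, 7.95 and 7.97 in WT arrays. Every KO array was above every WT array, by at least 0.41. The means of 8.48 ± 0.12 in KO and 7.91 ± 0.09 in WT (SD, n = 4 each) differed by 0.57 (SE 0.09, interval 0.36 to 0.78), or 1.48-fold (limma, adjusted p = 0.00219).

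Lect2 encodes a protein that hepatocytes secrete into the blood and is a known beta-catenin target. Its promoter window is the one of the 3 risers with a TCF/LEF match. The window of Slc1a2, which was not called, held the same letters, and 14.8% of all windows held a match. Whether the match bears on the rise was not tested. The Lect2 values were 7.35, 7.31, 7.23 and 7.12 in KO arrays and 6.68, 6.22, 6.62 and 6.36 in WT arrays. The groups were 0.44 apart at their nearest arrays. The means were 7.25 ± 0.10 in KO and 6.47 ± 0.22 in WT (SD, n = 4 each), and the change of 0.78 (SE 0.12, interval 0.52 to 1.04), or 1.72-fold, was the largest of the 10 members (limma, adjusted p = 0.00114). Of all genes tested 1.79% had a larger rise, with larger falls not counted.

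The transporters did not follow Glul and Oat past the threshold. Rhbg, an ammonia transporter of the Rhesus family, read 4.51, 4.82, 4.69 and 4.69 in KO arrays and 4.75, 4.62, 4.72 and 4.68 in WT arrays, so that the WT values lay inside the KO range. Its change was -0.011 (interval -0.21 to 0.19; limma, adjusted p = 0.957), and a row shared by Tsacc and Rhbg, which cannot be given to either gene, had one of 0.092. Slc1a2, which encodes a glutamate transporter that takes glutamate into pericentral cells, read 4.50, 4.24, 4.05 and 4.41 in KO arrays and 4.25, 4.26, 4.24 and 3.92 in WT arrays. The lowest array was WT replicate 4, and the other WT arrays lay among the KO arrays. The change was 0.13 (interval -0.14 to 0.40; limma, adjusted p = 0.549).

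**Figure D2:**
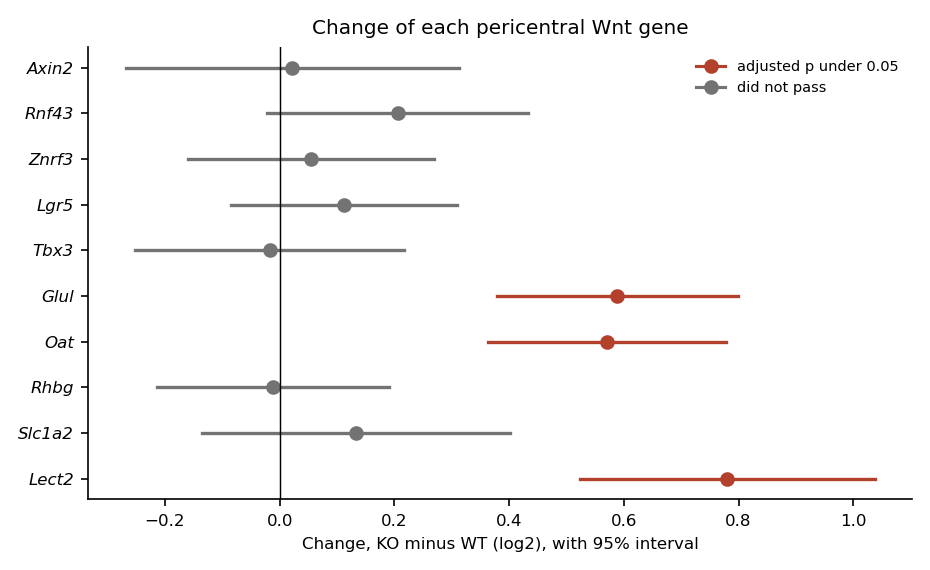
Change of each member, KO minus WT on the log2 scale, as a point with its 95% interval from limma; red marks an adjusted p under 0.05. The intervals of Glul, Oat and Lect2 lie above 0 (0.38 to 0.80, 0.36 to 0.78 and 0.52 to 1.04), and the other 7 intervals include 0.

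The wider Wnt pathway was examined in 86 genes grouped by role, of which 83 had a row and 76 were tested. Of these 3 were called higher and 0 lower in KO, against 7.02% and 6.76% of all genes, and 73 did not pass (limma; at an unadjusted p under 0.05 it was 5 higher and 7 lower, against 12.2% and 14.7% of all genes); their median change was -0.05, against -0.02 over all genes. Of 23 tested genes of Wnt and R-spondin ligands and of Wnt secretion, none of the ligand genes was called. The 1 called gene was Porcn, which encodes the acyltransferase that Wnt proteins need for secretion. It read 5.87, 6.19, 6.28 and 5.51 in KO arrays and 4.92, 5.30, 5.10 and 4.81 in WT arrays, a change of 0.93 (SE 0.17; limma, adjusted p = 0.00366) with no overlap. Of 14 receptor genes 2 were called. Ror1, a receptor for Wnt5a, rose 2.55-fold, with 5.29, 5.26, 5.80 and 5.40 in KO arrays and 4.26, 4.13, 4.11 and 3.84 in WT arrays (limma, adjusted p = 6.75e-05). The Frizzled gene Fzd5 rose by 0.48 (SE 0.13; limma, adjusted p = 0.0306), a call that ended when any 1 array was left out other than KO replicate 4 or WT replicate 2, and with no filter on dim genes.

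The signals known from the central vein did not pass the test. Rspo3, an R-spondin made by its endothelium and by stellate cells, read 2.95, 3.71, 3.81 and 3.90 in KO arrays and 4.16, 3.81, 3.96 and 3.85 in WT arrays. KO replicate 1 was the lowest array, the groups overlapped, and the change of -0.35 (interval -0.76 to 0.056) did not pass (limma, adjusted p = 0.260). Wnt2 and Wnt9b, picked for their role in that endothelium after their values were seen, had changes of -0.020 and -0.069, with KO means of 4.17 and 4.25 and WT means of 4.19 and 4.32 (limma, adjusted p = 0.942 and 0.814). Of 13 tested genes of beta-catenin and its destruction complex 0 were called in limma. At an unadjusted p under 0.05, 2 were lower, against 14.7% of all genes. A negative change was seen in 11 of the 13, against 8426 of all 15380 genes. Tnks2 had the smallest p of these, with a change of -0.29 and no overlap (limma, adjusted p = 0.0575). Ctnnb1, which encodes beta-catenin, had means of 9.28 ± 0.11 in KO and 9.51 ± 0.13 in WT (SD, n = 4 each), a change of -0.23 (interval -0.45 to -0.017) that did not pass (limma, adjusted p = 0.153). Of 11 genes of TCF/LEF factors and cofactors 0 were called in limma. At an unadjusted p under 0.05, 1 was higher and 4 lower, against 12.2% and 14.7% of all genes. Tle1 had the smallest p of these, with a change of -0.41 and no overlap (limma, adjusted p = 0.0653). Of 15 Wnt inhibitor genes 0 were called, and 0 at an unadjusted p under 0.05; the inhibitor gene with the smallest p was Kremen2 (0.17; limma, adjusted p = 0.339).

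Among Wnt target genes known from many tissues no rise was called. Of 15 tested, 0 were called higher and 3 lower in KO (limma), against 7.02% and 6.76% of all genes. At an unadjusted p under 0.05 it was 0 higher and 5 lower, against 12.2% and 14.7% of all genes. The list median was -0.12. Jag1, a ligand of Notch receptors, fell to 4.89, 5.45, 5.83 and 5.25 in KO arrays, against 7.04, 6.68, 6.81 and 6.52 in WT arrays (change -1.41, SE 0.18; limma, adjusted p = 4.56e-04). The growth regulator Myc fell by 0.72 (SE 0.10) and the hyaluronan receptor gene Cd44 by 0.68 (SE 0.14), both with no overlap (limma, adjusted p = 9.68e-04 and 0.00711). Several of these genes also answer to other pathways and other cell types express them. The list shares 3 tested genes with the Wnt inhibitors and 1 with the TCF/LEF factors and cofactors. It also shares 1 with the bile duct markers described below, so these lists are not separate.

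**Figure D3:**
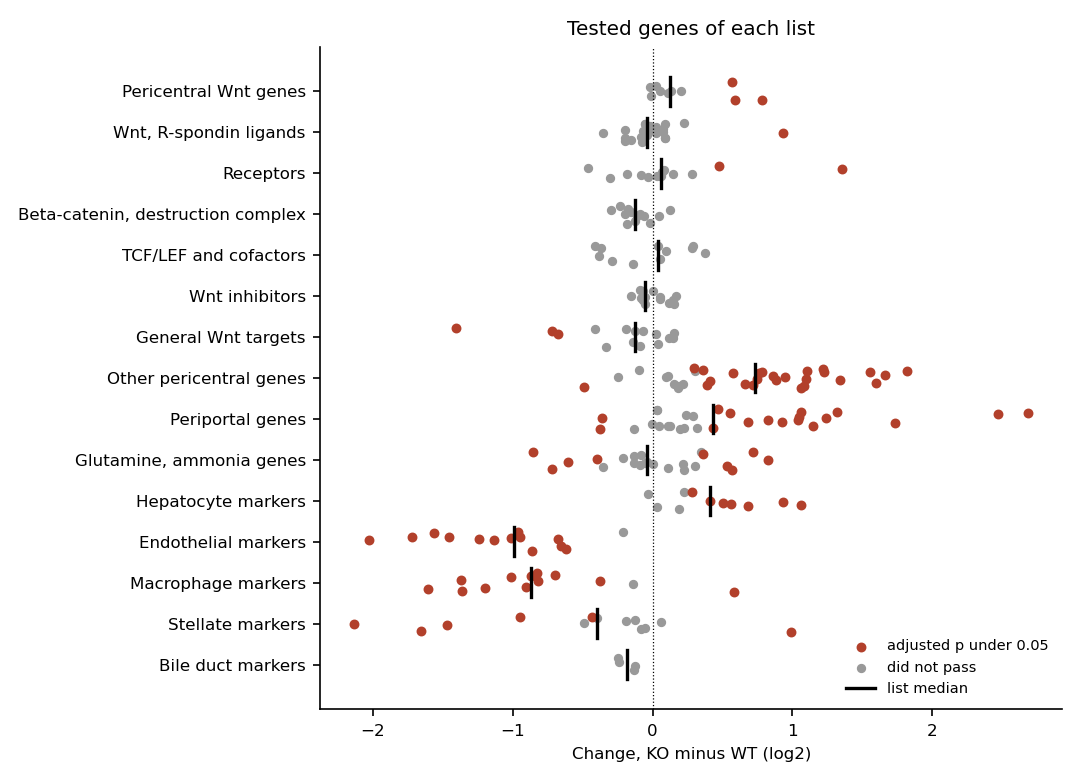
Change of every tested gene of each list, KO minus WT on the log2 scale, with 1 point per gene, red where the adjusted p was under 0.05, and a black bar at the list median. The 10 pericentral Wnt genes have a median of 0.12, other pericentral genes 0.73, periportal genes 0.43 and endothelial markers -0.99.

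Among zonation genes outside the set, calls of higher expression in KO outnumbered calls of lower expression on both sides of the lobule. Of 34 tested genes enriched near the central vein 24 were called higher, 1 was called lower and 9 did not pass. Their median change was 0.73. Among all genes tested 7.02% were called higher and 6.76% lower, with a median change of -0.02. Slco1b2, an uptake transporter for bile acids and drugs, rose 3.52-fold, and Cyp1a2, a cytochrome P450 enzyme, rose 2.94-fold, with 9.31, 9.26, 9.28 and 8.96 in KO arrays and 7.54, 7.66, 7.81 and 7.57 in WT arrays. The glutathione transferase gene Gstm3 rose by 1.66 (SE 0.13) and Gulo, whose enzyme completes vitamin C synthesis, by 1.34 (SE 0.10). Cyp2e1, a classical pericentral P450, rose by 0.41 (limma, adjusted p = 0.0182), and the one gene called lower was the aldehyde dehydrogenase gene Aldh3a2 (-0.49); these names were picked after their values were seen. The changes of Glul (0.59) and Oat (0.57) were below this list's median and that of Lect2 (0.78) just above it.

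Of 29 tested periportal genes, which sit at the opposite end of the lobule, 15 were called higher, 2 were called lower and 12 did not pass. Their median change was 0.43, and the shares over all genes were 7.02% called higher and 6.76% lower. The 2 lower ones were the mitochondrial serine carrier gene Sfxn1 (-0.38; limma, adjusted p = 0.0326) and the protease gene Ctsc (-0.36; limma, adjusted p = 0.0303), named after their values were seen. Neither was called without KO replicate 2 or 4 or without WT replicate 1, 2 or 3, nor with no filter on dim genes, median centring, an adjusted p under 0.01 or a 1.5-fold minimum. The urea cycle genes Arg1 and Cps1 rose by 2.69 (SE 0.18) and 1.32 (SE 0.10), and Pck1, the entry enzyme of gluconeogenesis, by 2.47 (SE 0.17). Cyp2f2, a periportal P450, read 9.93, 9.88, 9.80 and 9.61 in KO arrays and 7.82, 8.06, 8.25 and 8.15 in WT arrays. Whether the pericentral and periportal lists differ in size of change was not tested. Both lists were written from textbook knowledge, but with earlier results of these data known, so their counts may not be independent of these data. The pericentral list shares 2 tested genes with the hepatocyte markers described next, as does the periportal list.

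Most hepatocyte markers were also called higher, and most endothelial and macrophage markers lower, in KO. By contrast, 7 of 13 stellate markers and all 4 tested bile duct markers did not pass. The shares over all genes tested were 7.02% called higher and 6.76% lower. Of 11 tested hepatocyte markers 7 were called higher, 0 lower and 4 did not pass (median 0.41), among them Hnf4a, a master regulator of hepatocyte genes (0.93, SE 0.12), while albumin (Alb) had a change of 0.030 (limma, adjusted p = 0.850). The mean of these markers ran from 11.12 to 11.27 in KO arrays and from 10.64 to 10.82 in WT arrays. Without KO replicate 1, KO replicate 2 or WT replicate 2, 4 hepatocyte markers were called higher. Of 14 endothelial markers 13 were called lower and 0 higher, and their mean ran from 4.64 to 4.88 in KO and from 5.77 to 5.93 in WT. Of 13 tested macrophage markers 11 were called lower and 1 higher, with means of 4.51 to 4.64 in KO and 5.34 to 5.45 in WT. Of 13 tested stellate markers 5 were called lower, 1 was called higher and 7 did not pass, with means of 4.32 to 4.42 in KO and 4.90 to 4.95 in WT, and of 4 tested bile duct markers 0 were called (limma; 1 lower at an unadjusted p under 0.05).

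The endothelial cadherin gene Cdh5 fell by 2.03 (SE 0.09), the macrophage protease gene Ctss by 1.37 (SE 0.12) and the stellate cell gene Dcn by 2.13 (SE 0.16). The one macrophage marker called higher was the lysosomal protein gene Cd68 (0.58, SE 0.13; limma, adjusted p = 0.0131) and the one stellate marker the reelin gene Reln (0.99, SE 0.13; limma, adjusted p = 5.91e-04), and each had the highest mean of its list. Several markers were dim: among those with a row, the KO mean was under the limit of 3.32 for 1 of 14 endothelial, 3 of 14 macrophage, 1 of 14 stellate and 4 of 7 bile duct markers, and the WT mean for 0, 1, 1 and 3 of them. In bulk RNA, fewer cells of a type and less RNA per cell cannot be told apart. The part that this shift of markers has in the changes of Glul, Oat and Lect2 was not tested.

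**Figure D4:**
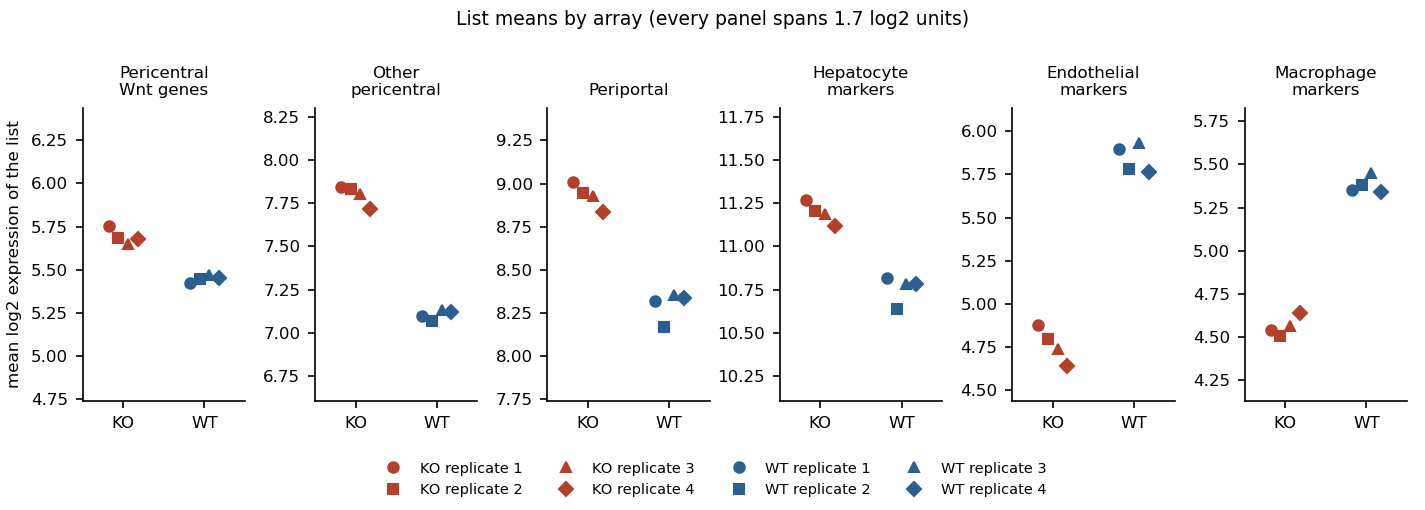
Mean log2 expression of the tested genes of 6 lists in each array, KO left and WT right, with symbols for the replicate number. KO arrays lie above WT arrays for the pericentral, periportal and hepatocyte lists and below them for the endothelial (4.64 to 4.88 in KO, 5.77 to 5.93 in WT) and macrophage lists; the mean of the 10 pericentral Wnt genes (5.65 to 5.75 in KO, 5.42 to 5.47 in WT) includes the 3 that were called.

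Genes that handle glutamine, glutamate and ammonia beside Glul and Oat moved both ways. Of 23 tested, 5 (21.7%) were called higher and 4 (17.4%) lower in KO, against 7.02% and 6.76% of all genes. Their median change was -0.04. Gpt2, a mitochondrial alanine aminotransferase, rose by 0.83 (SE 0.11), and the glutamine transporter genes Slc38a1 and Slc38a4 rose by 0.72 (SE 0.10) and 0.56 (SE 0.10). Slc7a6, which encodes a carrier that exchanges basic amino acids and glutamine, fell by 0.85 (SE 0.14). Odc1, whose enzyme uses ornithine, the substrate of Oat, for polyamine synthesis, fell by 0.61 (limma, adjusted p = 0.00407); it was named after its value was seen.

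The genes whose values most resembled those of Glul were sought among all genes tested, members left out. By Pearson correlation over the 8 arrays they were Scap, Acot12, Rdh16f2, 1700017B05Rik and Slc35d1, with r from 0.987 to 0.991. The 8 arrays fall into KO and WT, so a difference between the groups shared with Glul gives a high r by itself, and r is given as a measure of likeness with no test. Acot12, which encodes an acetyl-CoA hydrolase, rose by 0.90 (SE 0.12; limma, adjusted p = 4.32e-04), and KO replicate 4 was its lowest KO array, as it was for Glul.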

How the data were processed

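RNA from 8 hepatocyte samples (4 KO, 4 WT) was hybridised to 1 array each. The authors deposited log2 expression values for 41345 rows, made with RMA through the oligo package per the submitters' processing notes, in versions that the notes do not give. The method corrects background, gives all arrays a common distribution and summarises a row's probes by median polish, so a shift of all genes is removed, changes of dim genes are compressed and identical values can recur across arrays. Arrays have no read depth; their number limits the precision.

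Rows were named from the platform annotation: 23521 had 1 symbol, 1814 several and 16010 none; 23328 of those with 1 symbol matched RefSeq (GRCm38.p6) by gene identifier. For each of 22180 genes the row of highest mean was kept, and the 15380 genes above the 40th percentile of row means (3.32) were tested with limma 3.58.1 in R 4.3.3 (lmFit, eBayes, 6 residual and 5.05 prior degrees of freedom), with p-values adjusted by Benjamini-Hochberg over these genes and called below 0.05. P-values are two-sided, SEs are limma's moderated ones and 95% intervals are not adjusted. The procedure was also run on simulated data in which genes were drawn independently of one another, and no result here rests on it.

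The members and gene lists were chosen with earlier results of these data known. Named genes are the members, the 4 of smallest p in each other list, the 2 of highest mean in each cell type list and the 5 most like Glul; names outside this rule are marked. Same-numbered KO and WT samples deviated together with r of 0.061, 0.020, 0.26 and 0.21 for replicates 1 to 4. Differently numbered ones ranged from -0.29 (KO replicate 4, WT replicate 3) to 0.15 (KO replicate 4, WT replicate 2). The labels do not say whether samples of the same number are pairs. Alternatives changed the filter (none, 20th or 60th percentile), the row kept for a gene, the normalization, the variance model, the weights of arrays or the threshold, added a replicate block, or left out 1 array.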

Additional observations from a re-analysis of the deposited data

Results flagged for a closer look

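In 182 groups of 4 arrays, 15 had 1 array far from the other 3, by its gap to the nearest of them over the whole range (above Dixon's 95% critical value); chance gives about 1 in 20, or 9.1. Among the members, Oat read 7.77 in WT replicate 2 against 7.95 to 7.97 in the other WT arrays. Znrf3 read 6.33 in KO replicate 1 beside KO values that were nearly identical (6.42), and Slc1a2 read 3.92 in WT replicate 4 against 4.24 to 4.26. Without WT replicate 2 the rise of Oat was still called.

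In the Wnt pathway, Ctnnb1 read 9.31 in WT replicate 2, Tnks2 8.96 in WT replicate 3, Tnks 6.73 in KO replicate 4 and Kremen1 6.41 in WT replicate 3. In the other lists, Cyp1a2 read 8.96 in KO replicate 4, Slc38a4 10.26 and Ttr 12.95 in KO replicate 1, Lyve1 7.90 in WT replicate 2, Ctss 5.08 in WT replicate 3 and Fcer1g 4.37 in KO replicate 3. The mean of the bile duct markers was 5.43 in KO replicate 2 and 5.49 in WT replicate 4.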

How the results depend on the processing

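Counts of called genes were recomputed under 22 alternatives, and the changes of members under the 20 of these that refit the data (17 for Lgr5 and 19 for Slc1a2); the promoter matches and the genes most like Glul were not recomputed. Glul, Oat and Lect2 were called higher under each, except Glul when a gene's rows were averaged (0.24; limma, adjusted p = 0.190) and Oat with a minimum of 1.5-fold, which each left 2 members called; all 3 were called with any array left out, and 0 members were called lower under any alternative. Changes ranged from 0.52 to 0.60 for Oat and from 0.70 to 0.85 for Lect2. Members that were not called stayed so. Of these, Rhbg turned positive with cyclic loess (0.0024), with another quantile normalization (0.017) and without KO replicate 1 (0.045) or WT replicate 1 (0.0086). Axin2 turned negative and Tbx3 positive with array weights (-0.029 and 0.056) and without KO replicate 4 (-0.086 and 0.063), and so did Axin2 without WT replicate 1 (-0.018) or 3 (-0.019) and Tbx3 without WT replicate 4 (0.023). With 1 array left out, the changes ranged from -0.086 to 0.12 for Axin2, from -0.070 to 0.063 for Tbx3 and from -0.059 to 0.045 for Rhbg. Slc1a2, at 0.13 in the main analysis, had 0.217 without KO replicate 3, 0.066 without KO replicate 1 and 0.050 without WT replicate 4. Lgr5, at 0.11, had 0.056 without KO replicate 1. Znrf3, at 0.055, had 0.118 without WT replicate 2, 0.0013 without WT replicate 1 and 0.021 without WT replicate 4. Lgr5 and Slc1a2 were not tested under the stricter filter, and Lgr5 not when rows were averaged or chosen by variance. Called genes of the wider Wnt pathway numbered 3 in the main analysis, 5 with the 60th percentile filter, cyclic loess, quantile normalization, an intensity trend (robust or not) or the replicate block, and 6 with array weights; leaving out an array gave 2 to 5. Ror1 and Porcn were among them under each alternative, both higher in KO. Those called under some alternatives alone were Tle1, Tnks2, Fzd6 and Sfrp1, all lower in KO, and Bcl9l and Tcf7l1, both higher. Genes of the wider Wnt pathway called lower, 0 in the main analysis, numbered 0 to 2 under the alternatives. Pericentral genes called higher numbered 18 to 24 and lower 0 to 1, and periportal genes 12 to 19 and 0 to 2. For the remaining lists, recomputed after the data were seen, hepatocyte markers called higher numbered 3 to 9, endothelial markers called lower 10 to 13, macrophage markers 6 to 11, stellate markers 3 to 7 and general Wnt targets 3 under each; macrophage markers called higher numbered 0 to 1. Genes of glutamine and ammonia gave 2 to 7 higher and 3 to 4 lower, and bile duct markers 0. Genes called in all numbered 1071 at an adjusted p under 0.01 and 895 with 1.5-fold, against 2119; leaving out an array gave 1447 to 2168. The replicate block, which treats samples of the same number as pairs, gave 2215 genes and the same 3 members. The causes were not tested. Dim rows such as Lgr5 limit what these arrays show.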
